A study of Mus musculus with 18 samples.

Results

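Neural precursors at day 3 of a motor neuron differentiation were compared with embryoid bodies at day 2, as 3 arrays against 4 arrays out of 18 in the series, and all 18193 genes measured were described. The arrays were chosen by their labels alone. All of them come from HBG3 cells, a single mouse embryonic stem (ES) cell line that carries green fluorescent protein under regulatory sequence of the motor neuron gene Hb9 (now Mnx1). The day 2 group is embryoid bodies, aggregates of cells in suspension, after 2 days in serum-replacement medium without retinoic acid (RA) or hedgehog agonist. The day 3 group is embryoid bodies a day later, after RA and a hedgehog agonist had both been added on day 2. No array of day 3 embryoid bodies without RA and agonist was analysed here, so RA, agonist and the day of further culture cannot be told apart. Each array holds RNA of a whole aggregate culture, in which fewer cells of a type and less RNA per cell cannot be told apart. The methods describe biological triplicates, whereas the labels do not say whether the 4 day 2 arrays are separate cultures. The p-values measure the spread between arrays of the same group, pooled over the 6 groups of the series. The 2 arrays of day 2 embryoid bodies after 8 h of RA are given beside some genes as levels only. Their labels name RA, and the sources used here do not settle whether the hedgehog agonist was also present.

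RA is made from vitamin A by enzymes such as Aldh1a2, is broken down by Cyp26 enzymes, and acts through RA receptors that bind DNA as partners of retinoid X receptors. In the embryo it turns the posterior epiblast toward neural fate and switches on the Hox genes of the hindbrain and cervical spinal cord, whereas hedgehog signaling sets the ventral identity of the neural tube through Gli factors. Between the epiblast and the neuron stands the neural progenitor, which expresses Sox1 and Pax6, still divides, and is held back from differentiation by Notch signaling.

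Values are the authors' log2 signals of Affymetrix probe sets, computed with GCRMA on the 18 arrays together. A difference of 1 is a 2-fold change, and the lowest values lie near 2.23. Signals under 4 were treated as background, where 56.1% to 56.9% of the probe sets of each of the 7 arrays fell. A limma model with a mean for each of the 6 groups and no pairing of arrays was fitted to all 18 arrays and 45037 probe sets. Its p-values were adjusted by the Benjamini-Hochberg method. A gene was called when any of its probe sets changed at least 2-fold with an adjusted p under 0.01. The values printed for a gene are those of its brightest probe set by mean over the 18 arrays, and a call is said to fail in another fit where that probe set no longer passed. Where every array of the lower group was under background, that mean was set to 4 and the fold is written as "at least". The ± of a mean is the SD over arrays, and the standard error (SE) of a difference is that of limma. The standard error uses a spread pooled over all stages, which is small for genes that rest at the lowest values at most stages.

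At day 3, 711 genes were called higher and 692 lower than at day 2, which is 3.91% and 3.8% of the 18193 genes, with 1 gene in both counts because its probe sets disagree. The changes were large. At least 4-fold changes were called for 392 higher and 450 lower genes, and at least 16-fold changes for 89 and 100. The median difference over all genes was 0.00 on the log2 scale. Of the genes whose brightest probe set was called, 121 of 619 higher genes were under background on every day 2 array, and 197 of 585 lower genes were under background on every day 3 array. Every day 3 array lay above every day 2 array for 12.1% of all genes and below for 12.2%. In the plot of mean levels, the called genes spread far from the diagonal on both sides.

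**Figure D1:**
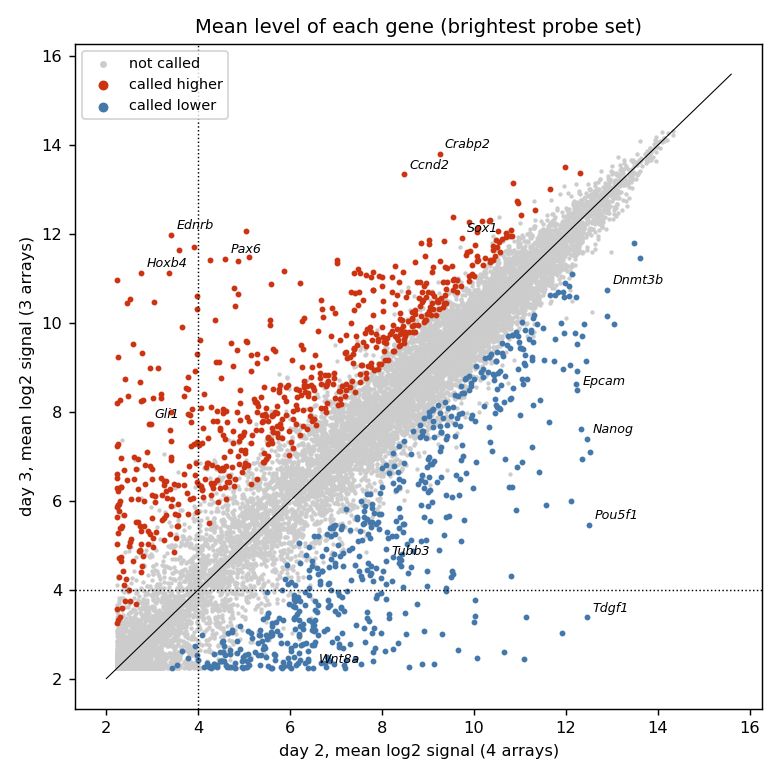
Mean log2 signal at day 2 (horizontal, 4 arrays) against day 3 (vertical, 3 arrays) for each of 18193 genes by its brightest probe set, with 619 called higher in red, 585 called lower in blue, equal levels on the solid line and the background level of 4 dotted. Hoxb4 and Ednrb lie left of the background level of day 2 near the top, and Tdgf1 lies at the lower right below the background level of day 3.

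The arrays of each day fall into unlike pairs. Day 2 replicates 1 and 2 correlated at 0.992 over probe sets and replicates 3 and 4 at 0.991, against 0.967 to 0.977 between these pairs, while day 3 replicates 1 and 2 correlated at 0.993 and replicate 3 with them at 0.983. Correlations between the days were 0.949 to 0.969. Among 10566 genes with a mean at or above background, day 3 replicate 3 stood at least 1 log2 unit above both other day 3 arrays for 527 and below both for 297. The distance between the 3′ and 5′ probe sets of Actb, a measure of how much of each transcript the amplified RNA covers, was 1.05 to 1.75 at day 2 and 1.64, 1.97 and 2.22 at day 3, largest in replicate 3. For Gapdh it was 0.86 to 1.01 at day 2 and 0.91, 0.97 and 1.41 at day 3, where only replicate 3 lay outside the day 2 range. With replicates 1 and 2 of both days alone, 368 genes were called higher and 318 lower, and with day 2 replicates 3 and 4 against day 3 replicate 3 alone 195 and 268. That single day 3 array has no spread of its own and is assumed to vary like the other groups. The fit of the 7 arrays by themselves called 319 and 332, of which 292 and 309 are among the genes above. What part the split and the coverage of transcripts have in the changes was not tested.

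The label of neural precursor was set against marker genes. Pax6, a homeobox regulator of neural progenitors, read 3.30, 5.31, 5.33 and 4.40 on the day 2 arrays and 11.36, 11.40 and 11.59 on the day 3 arrays. Sox1, the earliest general marker of neural plate cells, was already at 9.20, 9.95, 10.22 and 9.57 at day 2 and reached 11.77, 12.19 and 11.80. Both groups stayed apart for each gene, by 6.86 for Pax6 (SE 0.91, adjusted p = 0.00034 by limma, 116-fold) and by 2.19 for Sox1 (SE 0.24, adjusted p = 6.4e-05, 4.55-fold). The call of Sox1 failed in the fit of the 7 arrays and with their split entered there as a 2-level block. That of Pax6 failed with replicates 1 and 2 of both days alone. It failed as well with day 2 replicates 3 and 4 against day 3 replicate 3, a single array. Nes, which codes for the intermediate filament nestin of neural progenitors, did not pass on any of its 3 probe sets, and its 6.47 to 8.47 at day 2 overlapped with 7.58 to 8.74 at day 3 (difference 0.54, SE 0.62, adjusted p = 0.84). The motor neuron genes Mnx1 and Isl1 had means under background at day 3. Of the markers set for a precursor, Sox1, Sox3, Pax6 and Hes5 were called higher and Nes was not.

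Several groups of genes departed from the background of called genes, and the bar plot of gene lists gives the share of measured members called in each. The lists were chosen with earlier results of these data known, so their counts are descriptions. Each count below is to be read beside the 3.91% higher and 3.8% lower of all genes. The anterior Hox and neural progenitor lists have the largest shares of higher genes, and the primed epiblast and pluripotency lists the largest shares of lower genes.

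**Figure D2:**
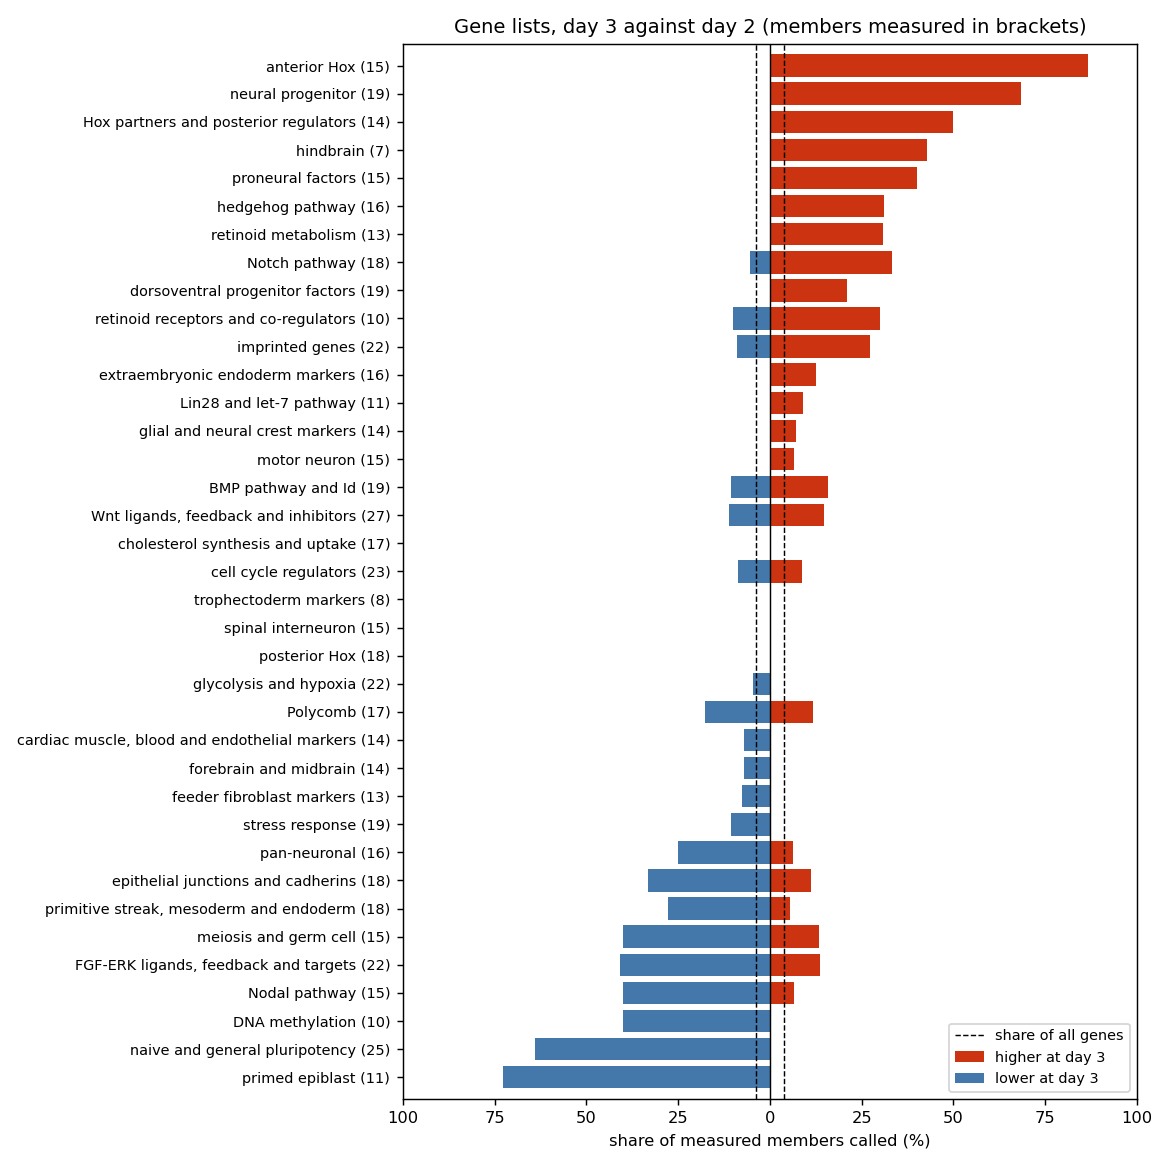
Share of the measured members of each of 37 gene lists called higher (red, to the right) or lower (blue, to the left) at day 3 than at day 2, in percent, with the share over all genes (3.91% higher, 3.8% lower) dashed and the number of members measured in brackets. Anterior Hox genes were called higher at 86.7% and primed epiblast genes lower at 72.7%.

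The promoters of the retinoid genes are shown first, because RA was added between the days and its receptors bind direct repeats of a 6-base half-site. RefSeq promoter windows (GRCm38.p6, 250 bases before to 50 after a gene's start) were searched on both strands for a pair of half-sites in the same orientation with 5 or 2 bases between them, and for GACCACCCA, the Gli motif. A half-site was taken as AGGTCA, or in the forms GGGTCA or else AGTTCA, or with both changes as GGTTCA. Of 33 called members of 5 lists on Hox, retinoid and hedgehog genes, 22 had a window, in 28 windows. The 5-base spacing was found in the windows of 2 genes, Rarb and Cyp26a1, and the 2-base spacing and GACCACCCA in those of 0 genes. Over all 32851 windows these were found in 0.0974%, 0.268% and 0.253%. The Rarb window is chr14:16575427-16575726 on the minus strand, with the repeat at -53 to -37 from the start of the gene in the direction of the gene. The Cyp26a1 window is chr19:37697558-37697857 on the plus strand, with the repeat at -32 to -16 in the opposite direction, so that its half-sites read as TGAACT. Both windows are printed 5′ to 3′ along the gene with the half-sites in capitals. A match of letters is no evidence of binding, and a window without one says nothing of the receptor.
Rarb: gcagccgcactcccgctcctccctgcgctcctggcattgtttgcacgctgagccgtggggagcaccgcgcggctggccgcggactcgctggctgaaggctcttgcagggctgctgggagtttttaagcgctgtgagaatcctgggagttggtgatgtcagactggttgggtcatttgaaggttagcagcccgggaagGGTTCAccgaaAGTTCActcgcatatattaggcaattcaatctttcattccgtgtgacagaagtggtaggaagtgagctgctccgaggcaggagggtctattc
Cyp26a1: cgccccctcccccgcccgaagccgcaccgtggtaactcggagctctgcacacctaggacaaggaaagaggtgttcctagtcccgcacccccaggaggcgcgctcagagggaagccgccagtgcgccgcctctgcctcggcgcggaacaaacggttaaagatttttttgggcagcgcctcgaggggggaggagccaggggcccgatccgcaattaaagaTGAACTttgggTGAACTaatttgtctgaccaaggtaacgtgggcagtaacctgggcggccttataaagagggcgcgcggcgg

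Of 13 genes of retinoid transport and metabolism measured, 4 rose, 0 fell and 9 did not pass, with a median difference of 1.56. Cyp26a1, the enzyme that clears RA, stood at 4.87, 4.74, 6.44 and 4.40 at day 2 and at 11.47, 11.23 and 11.73 at day 3, an 82.5-fold rise (difference 6.37, SE 0.53, adjusted p = 5.9e-06 by limma). After 8 h of RA it was already at 11.76 and 11.80, above all 3 day 3 arrays. Crabp2, a carrier of RA inside the cell, went from 8.94 to 9.61 at day 2 up to 13.75 to 13.89 at day 3 (23.5-fold), and its 10.41 and 10.45 at 8 h lay between the groups. The synthesizing enzyme Aldh1a2 was at most 3.19 at day 2 and 5.98 to 6.87 at day 3 (at least 5.59-fold, adjusted p = 0.00044), and the retinol receptor Stra6 at most 3.22 and 5.12 to 6.74 (at least 4.13-fold, adjusted p = 0.00024). Aldh1a2 was under background in the mean of day 4 (2.69). Crabp1, a second RA carrier, missed the threshold (difference 2.02, adjusted p = 0.011), although its 11.29 to 11.93 at day 3 lay above its 9.49 to 10.02 at day 2, and it passed in the fit of the 7 arrays alone (adjusted p = 0.008).

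The RA receptors changed in opposite directions. Of 10 receptors and co-regulators measured, 3 rose, 1 fell and 6 did not pass. Rarb, whose promoter holds the repeat printed above, read 3.23, 4.27, 4.52 and 3.12 at day 2 and 8.61, 8.96 and 8.79 at day 3 (32.0-fold, difference 5.0, SE 0.34, adjusted p = 9.8e-07). Rarg read 6.79, 6.53, 6.79 and 7.39 at day 2 and was under background at 3.66, 3.67 and 3.67 at day 3 (at least 7.34-fold lower, adjusted p = 1.4e-05). The 8 h arrays held Rarg at 6.75 and 6.78, within the range of day 2, whereas Rarb was at 7.45 and 7.17. The only probe set of Rara was under background on all 7 arrays and gave no level for it. Rxra, a retinoid X receptor, rose 2.81-fold and Nrip1, a co-repressor of nuclear receptors, 7.96-fold, and Rxra, like Stra6 above, was not called in the fit of the 7 arrays. Rarb was not called when the split of the 7 arrays was entered as a 2-level block in their own fit.

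Hox genes are set out in clusters whose order matches the body axis, with low numbers active more to the front. Of 15 genes of paralog groups 1 to 6 measured, 13 rose, 0 fell and 2 did not pass, with a median difference of 5.88. Hoxb4 rose at least 140-fold, from 2.52, 2.37, 3.80 and 2.33 to 11.12, 10.80 and 11.46 (difference 8.38, SE 0.30, adjusted p = 2.3e-09 by limma). Hoxb5 rose 266-fold, from 2.44, 3.41, 5.32 and 3.17 to 11.49, 11.23 and 12.20 (adjusted p = 3.8e-07). For both genes the 8 h arrays, at 9.91 and 10.42 for Hoxb4 and 11.35 and 11.30 for Hoxb5, were near the day 3 level. The other members that rose were Hoxa2, Hoxa3, Hoxa4, Hoxa5, Hoxb1, Hoxb2, Hoxb3, Hoxb6, Hoxc4, Hoxc5 and Hoxd3, and Hoxc6 and Hoxd1 stayed under background on all 7 arrays. Hoxb1 is the exception in the stability of its call, which failed without day 2 replicate 1, day 2 replicate 4 or day 3 replicate 3 (adjusted p up to 0.012).

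Single Hox genes differed in their levels at 8 h. Hoxd3 was under background at 8 h, at 2.46 and 2.27, and at day 3 read 10.85, 10.57 and 10.20, at least 93.2-fold over its 2.46 to 2.63 at day 2 (difference 8.02, SE 0.26, adjusted p = 1.2e-09). Hoxc4 went from 3.89 to 3.92 at day 2 through 8.18 and 7.38 at 8 h to 11.79, 11.88 and 11.48, and Hoxc5 from at most 2.25 through 4.40 and 4.21 to 7.90, 7.31 and 9.39. The opposite order was seen for Hoxb1, a gene of rhombomere 4 in the hindbrain, which was at 10.02 and 10.74 at 8 h and at 5.04, 5.45 and 7.51 at day 3, still above its 2.73 to 2.94 at day 2. Hoxb1 was under background again in the mean of day 4 (3.91). These 8 h and day 3 levels were not tested against each other.

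**Figure D3:**
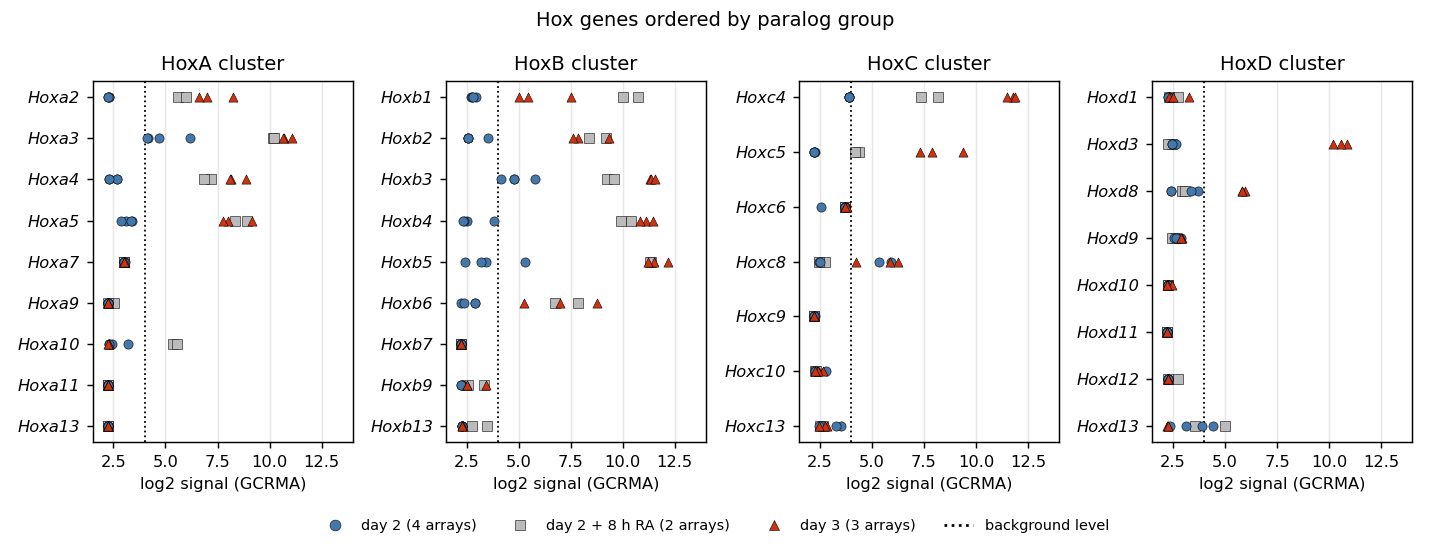
Log2 signal of each measured Hox gene on each array, with day 2 as circles, day 2 with 8 h of RA as squares and day 3 as triangles, a panel per cluster with paralog groups from low to high downward, and the background level of 4 dotted. The day 3 triangles stand far to the right for Hoxa2 to Hoxa5, Hoxb1 to Hoxb6, Hoxc4, Hoxc5 and Hoxd3, and lie near the left edge for all higher-numbered genes but Hoxc8 and Hoxd8.

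Of 18 Hox genes of higher paralog groups measured, 0 passed in either direction and 15 were under background on all 7 arrays, with a median difference of 0.00. Hoxc9, which marks thoracic cord, read 2.23 to 2.26 at day 2 and 2.23 to 2.24 at day 3. Hoxd8 came closest, with 2.39 to 3.68 at day 2 and 5.79 to 5.94 at day 3 (difference 2.89, SE 0.74, adjusted p = 0.029). Hoxa10 was at 5.34 and 5.57 after 8 h of RA and under background at day 3. Genes that act with Hox proteins or set posterior identity gave 7 higher of 14, with 0 lower. Meis1 and Meis2, DNA-binding partners of Hox proteins, rose at least 22.7-fold and 20.3-fold, Pknox2 of the same family rose 14.5-fold, and Tshz1, a zinc finger gene of the trunk, went from 5.86, 5.58, 4.65 and 4.06 to 11.97, 11.72 and 12.52 (131-fold, adjusted p = 6.7e-06). In the fit of the 7 arrays 4 members passed. The brightest Meis1 and Meis2 probe sets each target several transcripts of the gene by their suffix. Of the others the dimmest Meis1 probe set, without a suffix, passed (difference 2.67, adjusted p = 0.0037 by limma). A brighter Meis1 probe set without a suffix did not pass, and its groups overlapped (0.92, adjusted p = 0.83). The Meis2 probe set without a suffix did not pass either (2.19, adjusted p = 0.26).

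The largest rise of all genes was that of ccdc198, named as in the probe set annotation, from 2.23 to 2.24 on the day 2 arrays to 11.51, 11.51 and 9.86 (at least 124-fold, difference 8.72, SE 0.38, adjusted p = 1.4e-08 by limma). Its mean was 7.81 at day 4 and 2.24 at day 7, so the signal was high in the middle of the course only. Cltrn (collectrin, which helps to place amino acid transporters in the membrane) had the same shape, with at most 2.27 at day 2, 9.71, 9.69 and 8.30 at day 3, and means of 4.21 at day 4 and 2.24 at day 7. Ednrb, an endothelin receptor of neural progenitors and neural crest, rose at least 254-fold from 3.30, 3.54, 3.40 and 3.37 to 11.81, 11.90 and 12.26 and stayed high (12.84 at day 7). Nr2f1, a nuclear receptor of the hindbrain and cortex, was at most 2.74 at day 2 and 10.05 to 11.23 at day 3, with 2.39 and 3.40 at 8 h. Zfp703, in contrast, was already at 11.11 and 11.57 at 8 h and read 10.82, 11.01 and 11.54 at day 3, although its other probe sets stayed under background.

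**Figure D4:**
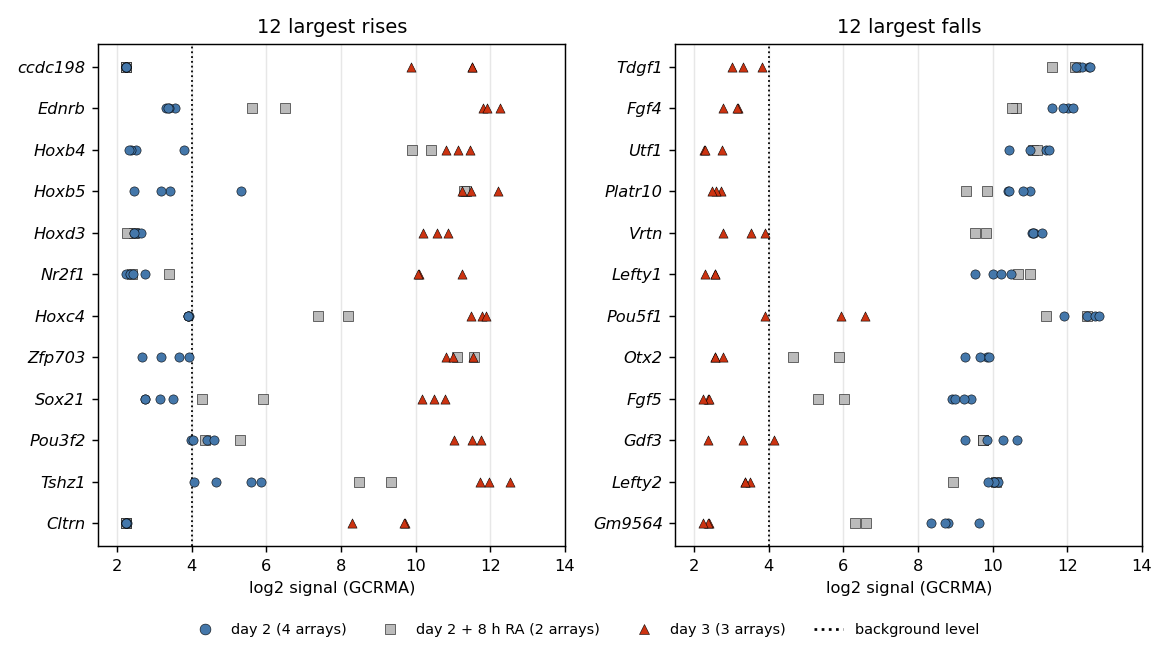
Log2 signal on each day 2 array (circles), 8 h RA array (squares) and day 3 array (triangles) for the 12 genes with the largest rises (left) and the 12 with the largest falls (right) among called genes whose groups do not overlap, with the background level of 4 dotted. Hoxb4, Hoxb5 and Zfp703 have their squares near the triangles, whereas Hoxd3, Nr2f1, ccdc198 and Cltrn have them near the circles.

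Neural progenitor genes gave 13 higher and 0 lower of 19 measured, with a median difference of 2.19. The POU factor Pou3f2 read 4.42, 3.99, 4.02 and 4.60 at day 2 and 11.50, 11.75 and 11.02 at day 3 (144-fold, adjusted p = 1.7e-08). Sox21, a repressor that acts in neural progenitors, rose at least 89.0-fold from 2.74 to 3.50 up to 10.16 to 10.77. Hes5, the Notch target that keeps progenitors undifferentiated, rose at least 46.3-fold from 2.44, 2.65, 2.44 and 2.82 to 9.09, 9.45 and 10.06 (adjusted p = 5.8e-08) and was at 2.44 and 3.25 at 8 h. No day 2 array of these genes reached any day 3 array. Dach1 (difference 4.39), Pou3f3 (4.58) and Cdh2, the cadherin of neural epithelium (2.75), rose as well. Sox2, shared by ES cells and neural progenitors, stayed high without passing (10.57 to 11.57 at day 2, 11.75 to 12.24 at day 3, adjusted p = 0.07), and Nkx1-2, a marker of the caudal epiblast, read 8.59 to 9.25 at day 2 against 6.77, 6.86 and 3.31 (adjusted p = 0.02).

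Hedgehog and ventral genes rose in part. Of 16 pathway genes measured, 5 rose, 0 fell and 11 did not pass. Gli1, the transcriptional readout of hedgehog signaling, went from 2.91, 2.52, 2.78 and 3.54 to 8.19, 7.33 and 7.68. The rise was at least 13.3-fold (difference 4.79, SE 0.47, adjusted p = 2.6e-05 by limma). On the 8 h arrays, where presence of the agonist is not settled, Gli1 was at 2.55 and 2.81. Ptch1, the hedgehog receptor and a target of the pathway, was bright at both stages, with 11.37 to 12.47 at day 2 and 13.10 to 13.83 at day 3 (2.91-fold, adjusted p = 0.0098). The pathway inhibitor Hhip rose 2.95-fold, and Boc and Gas1, co-receptors that Gli activity is known to repress, rose 6.51-fold and 6.32-fold. The ligand Shh was under background on all 7 arrays. Only Gli1 kept its call whichever array was left out, and Hhip, Boc, Gas1 and Ptch1 each missed it in 5 or 6 of 7 such fits (adjusted p up to 0.055 for Ptch1). Without day 2 replicate 3, day 2 replicate 4 or any of the day 3 arrays Ptch1 did not pass, and without day 2 replicate 1, replicate 3, replicate 4 or any of the day 3 arrays neither did the other members. A dimmer Ptch1 probe set passed with a lower adjusted p (difference 1.78, adjusted p = 9.1e-06 by limma). Its means of 2.46 and 4.23 lie under background at day 2 and close to it at day 3. The third Ptch1 probe set did not pass (difference 0.03, adjusted p = 0.92). With the replicate number as a block over all arrays Boc and Hhip were lost.

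Of 19 factors that divide the neural tube from dorsal to ventral, 4 rose, 0 fell and 8 were under background on all 7 arrays. Nkx6-1, which marks the ventral progenitors from which motor neurons arise, read 4.44, 4.05, 3.78 and 3.12 at day 2 and 8.56, 7.29 and 7.45 at day 3 (15.1-fold, adjusted p = 0.00022), and Irx3, of intermediate progenitors, 7.71 to 8.30 and 10.56 to 11.29. Dbx1, of progenitors in the middle of the tube, was at 2.23 on every day 2 array and at 5.15, 5.62 and 8.79 at day 3, highest in replicate 3. Olig2, the factor of motor neuron progenitors, read 6.83 to 7.34 at day 2 and 8.63, 8.91 and 8.19 at day 3. The Olig2 groups did not overlap, which holds for 12.1% of all genes in that direction. The difference of 1.51 (SE 0.47, adjusted p = 0.07 by limma) did not pass. Nkx2-2, of more ventral progenitors, stayed at 2.27 to 2.40 on all 7 arrays, and Pax3, Pax7 and Msx1, of dorsal progenitors, did not pass. The call of Irx3 failed without day 3 replicate 3 (adjusted p = 0.012). Dbx1 and Nkx6-1 were not called in the fit of the 7 arrays (adjusted p = 0.066 and 0.01) or with the array pairs as a 2-level block (adjusted p = 0.049 and 0.014), and Dbx1 also failed with either pair of day 2 arrays and with values raised to background (adjusted p up to 0.026). The fit of the 7 arrays called Olig1 lower (7.34 to 7.73 at day 2, 5.10 to 5.46 at day 3, adjusted p = 0.0014) and Nkx6-2 higher (5.24 to 5.91, then 7.30 to 7.56, adjusted p = 0.0093), neither of which passed over all arrays (adjusted p = 0.092 and 0.022).

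Of 18 Notch genes 6 rose, 1 fell and 11 did not pass, and of 15 proneural factors 6 rose, 0 fell and 9 did not pass. The 6 include Id2, which holds proneural proteins back, and Sox11, called on a dimmer probe set. Neurog2, the proneural factor of ventral spinal progenitors, rose at least 40.3-fold from 2.73 to 2.83 at day 2 to 8.52, 9.55 and 9.94 (difference 6.55, SE 1.01, adjusted p = 0.0011). Neurog1 was at 2.24 to 2.25 and then at 5.39, 4.96 and 7.38, and Neurod4 at 4.11 to 6.10 and then 9.01 to 9.60. Neither Neurog1 nor Neurod4 was called in the fit of the 7 arrays or with the array pairs as a 2-level block. Neurog1 also failed with values raised to background, and Neurog2 with day 2 replicates 1 and 2 only. Lfng, which modifies Notch, rose 13.8-fold, the target Nrarp 4.61-fold and the ligand Dll1 5.33-fold. Hes6, which opposes Hes1, fell by 1.66 on the log2 scale, from 10.49 to 10.63 at day 2 to 8.72 to 9.07. Counts of the Notch list were the most sensitive here, with 3 or 4 higher when any of the arrays was left out and 1 in the fit of the 7 arrays. The call of Dll1 failed in each of the 7 fits that left out an array (adjusted p up to 0.045), and that of Hey2 failed without day 2 replicate 1, 2 or 4 or day 3 replicate 1 or 2 (adjusted p up to 0.047). With the replicate block both were lost.

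Of 16 pan-neuronal genes measured, 4 fell, 1 rose and 11 did not pass, with a median difference of -0.28. Tubb3, the tubulin of neurons, was at 7.89, 6.79, 8.47 and 9.17 at day 2 and at 4.12, 4.60 and 5.25 at day 3 (10.7-fold lower, difference -3.42, SE 0.54, adjusted p = 0.0012). Ina, a neuronal filament protein, fell by 2.31 on the log2 scale from 10.97 to 11.16 down to 8.53 to 8.96 (adjusted p = 9e-05), Stmn2, a regulator of microtubules, by 2.31, and Nefl, the light neurofilament, by 2.03. Day 3 was the lowest stage for each of these 4 genes by group means, and at day 7 the means were 12.65 for Tubb3, 13.36 for Ina, 13.03 for Stmn2 and 13.66 for Nefl. The sum of the list's levels off the log scale was 4720 to 6970 per array at day 2 and 1650 to 2000 at day 3. Gap43 of growing axons was the member that rose (difference 1.76, adjusted p = 0.0036), and Dcx read 4.91 to 4.96 and 4.91 to 5.18. The fit of the 7 arrays kept 1 of the 4 falls, Ina. Stmn2 and Nefl missed the threshold without day 2 replicate 3 or 4 or any of the day 3 arrays, and Stmn2 also without day 2 replicate 1 (adjusted p up to 0.034 and 0.021), and Nefl was lost with the replicate block.

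Of 15 motor neuron genes measured, 1 rose (6.67%, beside 3.91% of all genes), 0 fell and 6 were under background on all 7 arrays. The riser was Ret, the receptor for glial-derived growth factors, from 3.93, 4.27, 3.83 and 3.68 to 9.39, 9.63 and 7.73 (31.8-fold, adjusted p = 9.2e-05). Mnx1, whose regulatory sequence drives the reporter of the line, read 2.27 to 2.54 at day 2 and 3.48, 4.04 and 2.54 at day 3 (adjusted p = 0.35), and Isl1 read 3.31 to 4.27 and 2.44 to 3.37 (adjusted p = 0.14). Spinal interneuron genes gave 0 calls of 15, with 10 under background on all 7 arrays. Forebrain and midbrain genes gave 1 fall of 14 (7.14%, beside 3.8% of all genes), that of Otx2, with 12 under background throughout. Of 7 hindbrain genes 3 rose, namely Nr2f1, Nr2f2 (from 3.46 to 5.15 up to 8.57, 8.70 and 10.61) and Irx2.

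**Figure D5:**
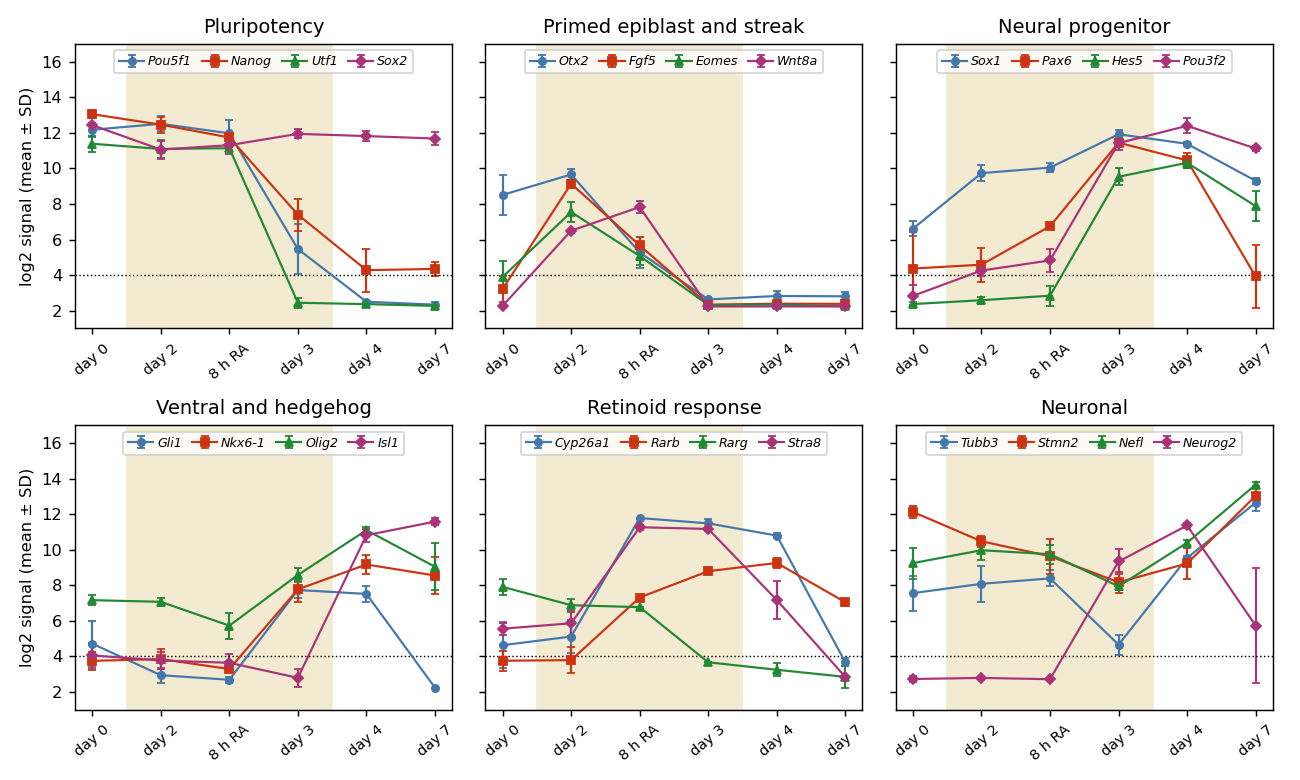
Mean log2 signal with SD bars for 24 genes over day 0 (3 arrays), day 2 (4), day 2 with 8 h of RA (2), day 3 (3), day 4 (3) and day 7 (3), with the interval from day 2 to day 3 shaded, the background level of 4 dotted and the stages spaced evenly rather than by time. Pou5f1, Utf1, Otx2 and Fgf5 drop within the shaded interval, Sox1, Pax6 and Hes5 climb, and Tubb3, Stmn2 and Nefl dip at day 3 before the day 7 rise.

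Pluripotency genes fell in number and in size. Of 25 measured, 16 fell, 0 rose and 9 did not pass, with a median difference of -3.32. Pou5f1, the central pluripotency factor, read 12.53, 11.92, 12.75 and 12.84 at day 2 and 6.57, 5.92 and 3.91 at day 3 (132-fold lower, difference -7.04, SE 0.50, adjusted p = 1.3e-06 by limma). Nanog read 12.53, 12.91, 12.56 and 11.84 and then 8.36, 7.25 and 6.59 (33.4-fold lower, adjusted p = 3.5e-05). Both were thus above background on 2 or more day 3 arrays, and day 3 replicate 3 was the lowest for each. Pou5f1 was not called with the array pairs as a 2-level block. Utf1 and the growth factor Fgf4 went further, to 2.28, 2.30 and 2.76 for Utf1 (at least 137-fold lower) and 3.18, 2.78 and 3.14 for Fgf4 (at least 240-fold lower, adjusted p = 1.5e-13). After 8 h of RA, Pou5f1 was still at 12.52 and 11.43 and Utf1 at 11.08 and 11.19. Sall4 (13.17 to 13.62 and 13.17 to 13.37) and Lin28a (11.99 to 12.41 and 11.66 to 12.02) did not pass and stayed bright. Klf4 split by array pair at both days, with 8.03, 8.19, 4.57 and 4.80 at day 2 and 7.56, 7.13 and 5.25 at day 3. Within replicates 1 and 2 of both days 12 members fell. Day 2 replicates 3 and 4 against the single array of day 3 replicate 3 gave 11, with the spread taken from the other groups.

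Primed epiblast genes, which mark the stage between ES cells and germ layers, gave 8 falls and 0 rises of 11, with a median of -2.59. Otx2, which is also a forebrain gene, dropped from 9.83, 9.67, 9.25 and 9.89 to 2.55, 2.78 and 2.57 (at least 50.6-fold lower, adjusted p = 3.4e-07), and Fgf5 from 8.92, 9.41, 9.0 and 9.23 to 2.38, 2.39 and 2.23 (at least 35.3-fold). Both were part of the way down at 8 h, at 5.89 and 4.65 for Otx2 and 5.33 and 6.01 for Fgf5. Pou3f1 fell 6.0-fold but remained at 8.25 to 9.81, and its call failed without day 3 replicate 3 (adjusted p = 0.013). Lef1, a factor of Wnt signaling, went from 10.24 to 11.18 down to 6.09, 6.52 and 7.18, a wide gap that did not pass (difference -4.20, SE 1.0, adjusted p = 0.019) and did in the fit of the 7 arrays (adjusted p = 0.0036).

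The Nodal pathway and the FGF-ERK pathway were lower in parts of each. Of 15 Nodal genes measured, 6 fell, 1 rose and 8 did not pass. The co-receptor Tdgf1 had the largest fall of all genes, from 12.40, 12.57, 12.62 and 12.24 to 3.31, 3.82 and 3.01 (at least 351-fold, difference -9.07, SE 0.32, adjusted p = 1.9e-09). The inhibitors Lefty1 and Lefty2 fell at least 66.7-fold and 65.2-fold, from 9.53 to 10.49 and 9.88 to 10.14 down to at most 2.56 and 3.51. Nodal itself fell 50.1-fold, from 11.45 to 11.66 to 6.20, 5.32 and 6.23, and the signaling inhibitor Smad7 and the Nodal cofactor Foxh1 fell as well, whereas Smad3 rose (difference 2.13) and the receptors Acvr1b and Acvr2b and the transducers Smad2 and Smad4 did not pass. At 8 h, Tdgf1 was at 12.20 and 11.60, Lefty1 at 11.01 and 10.67 and Nodal at 11.21 and 11.36, none of them more than 1 log2 unit below the lowest day 2 array of its gene.

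Of 22 FGF-ERK genes, 9 fell, 3 rose and 10 did not pass, with a median of -1.89. Besides the ligands Fgf4 and Fgf5, those that fell were the feedback inhibitors Spry1, Spry2, Spry4, Il17rd and Dusp6 and the ERK-responsive factors Etv4 and Etv5. Spry4 fell at least 15.7-fold, from 8.71, 7.79, 7.46 and 7.94 to 2.98, 2.99 and 3.14 (adjusted p = 1.8e-05), Il17rd at least 20.4-fold and Etv5 27.2-fold, from 11.25 to 11.60 to 7.50, 6.36 and 6.11. The 3 that rose were all receptors: Fgfr2 by 2.84 on the log2 scale, Fgfr3 by 3.51 and Fgfr4 by 4.00, while Fgfr1 did not pass (difference -0.24, SE 0.25).

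Primitive streak, mesoderm and endoderm genes gave 5 falls and 1 rise of 18, with 10 under background on all 7 arrays. Eomes, a factor of streak and endoderm, fell at least 11.7-fold from 6.83, 7.75, 7.44 and 8.16 to 2.48, 2.25 and 2.23 (adjusted p = 1.1e-06), and Mixl1 at least 5.60-fold. The Wnt ligand Wnt8a was at 6.37, 6.58, 6.44 and 6.60 at day 2, at 7.59 and 8.06 at 8 h, and at 2.23 on all 3 day 3 arrays (at least 5.65-fold lower, adjusted p = 6e-12). The 8 h and day 3 arrays thus lay on opposite sides of day 2. Wnt3 fell at least 3.03-fold, a call lost without day 2 replicate 3 or 4 or any of the day 3 arrays (adjusted p up to 0.016). Among 27 Wnt genes, 4 rose and 3 fell. Wnt5a, a ligand of the pathway that does not use beta-catenin, rose at least 31.7-fold from 2.58 to 3.57 to 9.01, 8.63 and 9.31, and the secreted inhibitor Sfrp5 at least 19.9-fold from 2.79 to 3.36 to 9.06, 8.50 and 7.37. The Wnt feedback gene Axin2 did not pass (difference -0.38, SE 0.41).

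BMP signaling genes gave 3 rises and 2 falls of 19. The risers were Id1, Id2 and Id3, inhibitors of proneural proteins and targets of BMP, by 2.38, 1.61 and 1.85 on the log2 scale, and the falls were those of the inhibitors Bambi (5.21-fold) and Fst (18.2-fold, from 10.67 to 11.58 down to 6.48 to 7.15). Id3 was lower at 8 h, at 5.57 and 5.46, than at either day, where it read 6.92 to 8.25 and 9.20 to 10.09. Its call failed without day 3 replicate 1 or replicate 3 (adjusted p up to 0.022).

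Of 18 genes of epithelial junctions and cadherins measured, 6 fell and 2 rose, with a median of -1.15. Epcam, an adhesion protein of ES cells and epithelia, went from 12.15, 12.06, 12.28 and 12.47 to 8.70, 8.64 and 8.11 (13.5-fold lower, adjusted p = 1.7e-07), and Cldn7, of tight junctions, fell 18.1-fold. Esrp1, a splicing factor of epithelial cells, fell by 2.72 on the log2 scale. Cdh2 rose 6.75-fold, from 8.69 to 9.25 up to 11.65 to 11.94, and Dsp of desmosomes rose 9.27-fold. Cdh1, the cadherin of ES cells and epithelia, read 12.64, 12.56, 12.57 and 12.53 at day 2 and 10.27, 10.05 and 10.44 at day 3, groups that are far apart on these 7 arrays. It did not pass with the spread pooled over all stages (difference -2.32, SE 0.78, adjusted p = 0.099) and passed in the fit of the 7 arrays (SE 0.10, adjusted p = 0.00052).

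DNA methyltransferases and Polycomb genes changed in named members. Of 10 genes of DNA methylation, 4 fell and 0 rose. Dnmt3l, the cofactor of de novo methylation, fell at least 23.1-fold from 9.20, 8.34, 7.84 and 8.74 to 3.61, 2.30 and 3.10 (adjusted p = 3.4e-07 by limma). On their brightest probe sets the de novo enzymes Dnmt3b and Dnmt3a fell 4.45-fold and 3.24-fold and stayed bright, at 10.75 and at 11.76 to 11.82. For Dnmt3b a second probe set fell by 5.12 on the log2 scale, more than the 2.15 of the brightest, so its probe sets disagree in size. Those of Dnmt3a disagree as well, with 3 of 5 passing. Dimmer ones that passed fell by 3.67 and 2.95, to day 3 means of 6.84 and 7.04, and those that did not pass fell by 1.06 and 0.98. The maintenance enzyme Dnmt1 did not pass (difference 0.10, SE 0.13). Of 17 Polycomb genes 3 fell (Cbx7, Phc1 and Jarid2) and 2 rose (Bmi1 and Ring1), all subunits of Polycomb complexes. Phc1 fell by 2.42, from 11.95 to 12.36 down to 9.57 to 10.04, and Bmi1 rose by 2.66, from 6.71 to 7.73 up to 9.90 to 10.12. Cbx7 lost its call without day 2 replicate 1, 3 or 4 or day 3 replicate 2, and Ring1 without day 2 replicate 1 or 2 or day 3 replicate 1 or 3 (adjusted p up to 0.019 and 0.039).

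Genes of meiosis and the germ line gave 2 rises and 6 falls of 15. Stra8, an RA-induced gene of entry into meiosis, rose 39.6-fold from 5.24, 5.55, 6.84 and 5.81 to 11.24, 11.03 and 11.22 (adjusted p = 4.4e-06) and was at 11.36 and 11.16 at 8 h. Rec8, a meiotic cohesin, rose 7.13-fold. Dppa3 (18.1-fold), Mael (11.5-fold) and Piwil2 (8.66-fold), genes of early germ cells and of transposon silencing, fell, as did Dazl, Sycp1 and Hormad1. Dppa3 varied widely at day 3, at 5.90, 2.94 and 4.32. In the fit of the 7 arrays 1 rise and 2 falls passed.

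Cell cycle genes gave 2 rises and 2 falls of 23, or 8.7% each, beside 3.91% higher and 3.8% lower over all genes. Ccnd2, the D-type cyclin of neural progenitors, rose from 8.07, 8.12, 8.52 and 9.22 at day 2 to 13.38, 13.27 and 13.41 at day 3 (29.2-fold, adjusted p = 0.00011), and all 7 of its probe sets passed. Rb1 rose 3.29-fold. The proliferation genes Mki67, Pcna and Top2a did not pass, with differences of 0.47, -0.06 and -0.10. Of 17 genes of cholesterol synthesis 0 passed and of 22 of glycolysis and hypoxia 1 fell (4.55%). Of 19 stress genes 2 fell, among them Nqo1 of the oxidative stress response (5.50-fold). Of 22 imprinted genes 6 rose and 2 fell. Peg12 (11.9-fold), Peg10 (7.19-fold) and Sgce (6.57-fold, on a probe set with a suffix) rose, and Phlda2 fell by 3.33 on the log2 scale, from 7.45 to 7.66 down to 4.23 on each day 3 array. Peg12 was not called in the fit of the 7 arrays.

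Among markers of cell types that the aggregates could also hold, few were called, although many were above background on some array. Over all genes 3.91% were called higher and 3.8% lower, and each of these lists had at most 2 calls. Of 16 extraembryonic endoderm markers 2 rose, the basement membrane gene Lama1 (19.4-fold) and Sox7 (at least 2.71-fold), while the defining genes Gata4, Gata6 and Sox17 were under background on all 7 arrays. The list's summed level off the log scale was 1470 to 3290 at day 2 and 2480 to 3270 at day 3. Trophectoderm markers gave 0 calls of 8, with Elf5 and Hand1 near the lowest values. Only 4 of the 8 were under background on all 7 arrays. Summed levels were 415 to 2030 at day 2, highest in replicate 1, and 137 to 560 at day 3. Of 13 feeder fibroblast markers 1 fell (Thy1, at least 5.72-fold), with sums of 235 to 631 at day 2 and 226, 261 and 1610 at day 3. Of 14 glial and neural crest markers Sox9 rose (9.15-fold), with Sox10 under background, and sums were 1330 to 1770 and 990 to 1370. Lama1, Sox7 and Sox9 were not called in the fit of the 7 arrays. Sox7 lost its call without day 2 replicate 1 or 4 or day 3 replicate 1 or 2 (adjusted p up to 0.019) and with the replicate block, and Sox9 without any of the arrays but day 3 replicate 3 (adjusted p up to 0.035).

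Of 14 markers of heart, blood and endothelium 1 fell (Myh6, at least 3.81-fold, lost without day 3 replicate 1 at an adjusted p of 0.01), and Kdr, Cdh5, Nkx2-5 and Hand2 were near the lowest values. The list's sums were 114 to 539 at day 2 and 127, 187 and 1780 at day 3. Day 3 replicate 3 held that level mainly through 2 embryonic globins, Hba-x at 4.88, 5.99 and 9.87 and Hbb-bh1 at 4.93, 5.79 and 9.40 on the day 3 arrays against at most 3.81 and 3.95 at day 2. Both lay apart between the days, as did 12.1% of all genes in that direction, and did not pass (adjusted p = 0.095 and 0.082 by limma). Acta2, a smooth muscle actin on the feeder list, followed the array pairs, with 4.57, 2.96, 8.27 and 8.53 at day 2 and 2.96, 3.19 and 9.88 at day 3, and Hnf4a, an endoderm factor, was at 7.55 and 8.12 in day 3 replicates 1 and 2 and at 2.49 in replicate 3. The part of these cells in the changes above was not tested.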

How the data were processed

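RNA of HBG3 cells was amplified with the NuGEN Ovation kit, and the deposited log2 values per probe set were made by the authors with GCRMA across all 18 arrays (versions not given in the sources used here). They were used as deposited, without the raw scans. Of 45037 probe sets left after 64 controls, 34945 carry 1 gene symbol, 932 several and 9160 none. The match of 34741 Entrez identifiers to RefSeq changed 0 symbols. Groups come from sample titles.

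Differences were tested in R 4.3.3 with limma 3.58.1, by lmFit and default eBayes on 6 group means, with 12 residual and 0.515 prior degrees of freedom and Benjamini-Hochberg adjustment, tested on simulated data. Python 3.11.15 and matplotlib 3.10.9 drew the figures. Named genes were the 12 largest rises and falls whose groups do not overlap, up to 4 called members of each of 37 lists, and a fixed set of stage genes. Other genes were added after their values were seen: list members described beside these, such as Cdh1, Lef1, Crabp1, Hba-x and Hnf4a, and families. The members and lists were chosen with earlier results of these data known.

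Alternatives were the 7 arrays alone, each array left out in turn, day 2 replicates 1 and 2 or 3 and 4 only, array weights, robust moderation with a trend, omission of dim probe sets (fewer than 2 of 7 arrays at background or above), values raised to background, median centring, quantile normalization, brightest or averaged probe sets, omission of suffixed probe sets (s, x, a), other thresholds and the replicate number as a block. Replicates 1 and 2 of both days, day 2 replicates 3 and 4 with day 3 replicate 3, and this split as a 2-level block were added after the data were seen. Deviations from group means of arrays with the same replicate number correlated at 0.48, 0.35 and 0.48. Each exceeded 0.1, the rule set for taking the numbers as pairs. Only the block fits use these pairs, and the fit behind the calls above has no block. Other numbers reached similar values (0.45 for day 2 replicate 4 with day 3 replicate 3, 0.33 for replicates 2 and 1). The rule therefore cannot tell a pairing from the split of the arrays, which gives the same pattern, and no label says what a number shares. The small number of arrays limits the precision.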

Additional observations from a re-analysis of the deposited data

Results flagged for a closer look

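Among the 4 day 2 arrays, 1 array was flagged as apart from the others in 3 of 112 named genes, all of them under the background level of 4. Genes whose day 2 values spanned less than 0.05 could not be flagged. Hoxb4 read 3.80 in replicate 3 against 2.33 to 2.51 in the others. Ebf3 read 2.48 in replicate 3 against 2.84 in each of the others. Rara read 3.83 in replicate 4 against 3.44 in each of the others. For normally distributed values, chance alone would set apart about 1 in 20 groups of this size. Values that are equal on the other arrays, as for Ebf3 and Rara, are not of that kind.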

How the results depend on the processing

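The counts of 711 higher and 692 lower genes changed with the arrays used and with a replicate block. The fit of the 7 arrays alone gave 319 and 332, replicates 1 and 2 of both days 368 and 318, day 2 replicates 3 and 4 against day 3 replicate 3 alone 195 and 268, and a 2-level block within the 7 arrays (replicates 1 and 2 against the rest) 345 and 331. Leaving out each array gave 497 to 629 higher and 494 to 772 lower genes. Lower genes numbered 402 with day 2 replicates 1 and 2 alone and 1016 with replicates 3 and 4 alone, and 1406 with array weights. Lower genes numbered 1060 at an adjusted p under 0.05, and at least 4-fold changes 392 and 450. The causes were not tested, beyond fewer arrays or a stricter threshold where the setting says so. The replicate number as a block gave 766 higher and 654 lower genes over all arrays (611 and 571 shared), with 6 of 104 called named genes lost, Boc, Hhip, Hey2, Dll1, Nefl and Sox7. Within the 7 arrays the block left 2 residual degrees of freedom and 0 and 0 calls by limma (smallest adjusted p 0.0143), with 1369 and 1120 genes at least 2-fold changed at an unadjusted p under 0.05. Of 104 called named genes, 62 lost their call in none of the 20 alternatives other than that block, the array pairs and the changed thresholds. The omission of suffixed probe sets held only 96 of the 104 genes, so genes with suffixed probe sets alone were not tested there. The choice of the brightest probe set could lose no call, because these genes were counted as called on it. In each of the 7 fits without an array 86 passed. In the fit of the 7 arrays 72 passed, and Sox1, Ptch1, Nkx6-1, Tubb3, Nr2f2 and Neurod4 were among those lost (adjusted p up to 0.089 by limma). The 2-level block lost 34, Pou5f1 and Rarb among them (adjusted p up to 0.11). Replicates 1 and 2 of both days alone lost 35, Pax6 and Neurog2 among them (adjusted p up to 0.2 by limma). Cyp26a1, Gli1, Pax6, Ccnd2 and Ret were among those lost with day 2 replicates 3 and 4 against the single day 3 replicate 3. No named gene that had been called changed direction in any of these. The number of arrays and the background level limit what small changes in dim genes can be seen.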

Other observations

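Families read by gene symbol were looked at after their values were seen, so their counts are descriptions. Over all genes 3.91% were called higher and 3.8% lower. All 3 Tshz zinc finger genes rose, Tshz3 by 3.35 and Tshz2 by 2.06 on the log2 scale beside Tshz1. All 4 Dppa genes fell, among them Dppa4 (from 10.52 to 11.29 at day 2 to 6.75, 5.15 and 7.04 at day 3) and Dppa5a, which fell by 2.75 and stayed at 9.82 to 10.53. Of 4 Platr transcripts, noncoding RNAs of ES cells, 3 fell. Of 16 Klf factors 4 fell (Klf2, Klf7, Klf9 and Klf16) and 0 rose. Of 19 Sox genes 6 rose, and Sox15 fell by 2.06. Sox11 counts among the 6 through a dimmer probe set, while its brightest, at 12.84 to 13.19 and 13.42 to 13.73, did not pass. Of 10 frizzled Wnt receptors 4 rose (Fzd2, Fzd3, Fzd4 and Fzd9) and Fzd5 fell.

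Most axon guidance genes did not pass: 8 of 11 plexins and neuropilins, 16 of 20 semaphorins, 6 of 8 ephrins, 10 of 13 Eph receptors and 8 of 12 netrins and their receptors. Over all genes 7.71% were called in either direction, a smaller share than in each of these families. Among those that did, Plxna2, a semaphorin receptor, rose by 5.58 (4.30 to 5.34 at day 2, at least 9.92 at day 3), its partner Nrp1 by 4.19, the ligand Sema3c by 4.13 and the ephrin Efnb3 by 4.79. Netrin 1 (Ntn1) was at 2.39 to 3.26 at day 2 and at 6.98, 7.25 and 8.94 at day 3, while of the netrin receptors Unc5a and Neo1 rose by 2.56 and 1.49 and Unc5b fell by 3.48. The Eph receptors Epha1 and Epha2 fell by 4.76 and 3.62, to at most 3.19, and Ephb1 rose by 2.06. Of 6 collagen IV genes 3 rose, Col4a5 by 5.21 and Col4a2 by 3.80. The aldo-keto reductases Akr1c19 and Akr1c18 went from at most 2.46 and 2.24 to 6.70 to 7.22 and 4.98 to 6.52.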
